A study of Caenorhabditis elegans with 2 samples.

Results

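The genes described here encode nucleolar proteins that make the ribosome, and the data are peaks of a tagged protein, C16A3.4, at their promoters in first-stage (L1) larvae of Caenorhabditis elegans. The set was given as 37 symbols. A member is a symbol that matches a protein-coding gene of the Ensembl WBcel235 annotation, which held for 31 of the 37 among 19973 protein-coding genes. The symbols nol-1, nol-2, nol-5, nhp-2, bop-1 and mak-16 had no match and are not counted. A gene was scored by the summits (the point of highest signal in a peak) that lay from 1000 bp upstream to 200 bp downstream of its annotated 5′ end. The rule itself uses no signal value.

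Chromatin immunoprecipitation and sequencing were done on whole larvae of both sexes in 1 group with 2 samples, labelled as biological replicate 1 and biological replicate 2. The animals were of strain OP345, with the genotype unc-119(ed3) III; wgIs345, in which an insertion adds an eGFP fusion of C16A3.4. There is no treatment or second genotype, the age is given as unknown, and the control used for peak calling was not analysed here. Whether the animals still have an intact native copy of C16A3.4 is not given. C16A3.4 is znf-622 in the annotation, a zinc finger protein whose yeast and human relatives act in late maturation of the large ribosomal subunit. The authors' lists are 30000 relaxed peaks for each replicate, 21096 relaxed peaks for both replicates pooled, and a thresholded list of 3220 peaks, which are the strongest of the pooled list. Relaxed lists hold background by design. The files used here give no read counts, so the depth is unknown, and signal values are the authors' own on a scale that is not stated. Whole larvae mix all cell types, so a summit cannot be placed in a tissue. At the tagged gene and at the unc-119 locus, neither znf-622 nor unc-119 had a thresholded or pooled summit in its window, and the nearest thresholded summits lay at 23658 bp and -6614 bp from their 5′ ends (negative is upstream).

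Ribosome production starts in the nucleolus, where RNA polymerase I makes a long precursor of ribosomal RNA. Small nucleolar ribonucleoproteins of the box C/D and box H/ACA classes mark it by methylation and pseudouridylation. A large complex called the small-subunit processome, and a series of large-subunit assembly factors, then fold and cut it into the precursors of both subunits.

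Genes of this set carried C16A3.4 summits at their promoters in 16 of 31 cases (51.6%), where 13.7% of all protein-coding genes had one in the thresholded list. All 6 matched snoRNP protein genes had one: fib-1, nol-56 and nol-58 of the box C/D class and dkc-1, garr-1 and nola-3 of the box H/ACA class. At nol-58 and nola-3, however, the summit lay nearer to the 5′ end of another gene. Of the small-subunit processome genes 5 of 8 had one (rbd-1, utp-20, nol-10, dcaf-13 and toe-1), and of the large-subunit assembly genes 4 of 11 (lpd-7, pro-1, nsun-1 and lpd-6). Among the 3 nucleolar regulators and nucleases, nucl-1 had one and ncl-1 and xrn-2 did not. The other 3 symbols, ebp-2, rnp-7 and tsr-1, had no summit in the window in any of the 4 lists. RefSeq gives these last 3 the products calponin homology domain protein, U1 small nuclear ribonucleoprotein and Xpo1 domain protein, names that are not those of ribosome biogenesis factors. Without them 16 of 28 genes (57.1%) had a thresholded summit. The design has no second condition and no test was made of these shares.

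The sequences under the strongest of these summits are shown first, because several share words of the same letters. Each is the 101 bp centred on the thresholded summit, read 5′ to 3′ on the strand of the named gene (WBcel235, which is ce11, genome sequence from RefSeq). Capitals mark 2 words on either strand. The first is GGTCTCGC, and the second, called the spaced word here, is GAGCGC followed after 2 bases of any kind by TTGC. The first 8 lines are the strongest member summits on chromosomes II to V, and nucl-1 and garr-1 are added because they hold the first word.
lpd-7 (chrIII:7573014-7573114, plus strand): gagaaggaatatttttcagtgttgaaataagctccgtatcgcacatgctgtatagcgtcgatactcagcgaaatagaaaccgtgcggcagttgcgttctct
fib-1 (chrV:15002249-15002349, minus strand): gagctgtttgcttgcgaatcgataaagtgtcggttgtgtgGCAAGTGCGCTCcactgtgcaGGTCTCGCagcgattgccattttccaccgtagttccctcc
rbd-1 (chrIV:12724785-12724885, plus strand): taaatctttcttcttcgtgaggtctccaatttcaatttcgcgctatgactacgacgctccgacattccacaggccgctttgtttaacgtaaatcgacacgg
nol-56 (chrV:10353177-10353277, minus strand): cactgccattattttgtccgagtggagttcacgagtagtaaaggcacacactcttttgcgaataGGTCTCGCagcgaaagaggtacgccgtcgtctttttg
utp-20 (chrII:6536087-6536187, plus strand): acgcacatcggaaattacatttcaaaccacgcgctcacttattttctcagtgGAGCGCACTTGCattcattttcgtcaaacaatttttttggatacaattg
nol-10 (chrIV:7580367-7580467, plus strand): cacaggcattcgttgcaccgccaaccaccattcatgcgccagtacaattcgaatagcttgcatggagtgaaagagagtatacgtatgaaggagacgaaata
pro-1 (chrII:10542110-10542210, minus strand): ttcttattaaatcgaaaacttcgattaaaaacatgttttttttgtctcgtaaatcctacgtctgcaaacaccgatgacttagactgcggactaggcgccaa
nsun-1 (chrII:476153-476253, minus strand): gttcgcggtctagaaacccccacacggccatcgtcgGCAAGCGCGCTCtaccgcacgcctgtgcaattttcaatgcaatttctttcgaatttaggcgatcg
nucl-1 (chrIV:8289711-8289811, minus strand): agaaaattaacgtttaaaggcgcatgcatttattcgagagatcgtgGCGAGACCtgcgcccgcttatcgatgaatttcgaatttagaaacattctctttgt
garr-1 (chrIV:425736-425836, plus strand): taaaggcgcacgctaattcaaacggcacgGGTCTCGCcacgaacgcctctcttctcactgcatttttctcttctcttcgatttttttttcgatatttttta

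GGTCTCGC occurred in 5 of the 15 member summit windows, those of fib-1, nol-56, nol-58, garr-1 and nucl-1, and it was the only word of 8 letters present in at least 4 of them. It occurred in 3.54% of all thresholded summit windows of the same length. Among windows of 101 bp centred at -227 bp from every protein-coding 5′ end, the median summit position of genes with a peak, the share was 0.641%. The spaced word occurred in 4 windows (fib-1, utp-20, nsun-1 and nola-3), in 5.90% of all thresholded summit windows and in 0.376% of the promoter windows. Only fib-1 held both. Both words were read off these windows, so their counts here are a description. The longest run of identical letters between any 2 member windows was CAGTGGAGCGCACTTGC, 17 bases shared by utp-20 and fib-1. Next came TCGCTGCGAGACCT, 14 bases shared by nol-56 and fib-1 and written on the strand opposite to their lines above. GGTCTCGCCACGA, 13 bases, was shared by garr-1 and nucl-1. Runs were matched on either strand, and each of these holds GGTCTCGC or the spaced word.

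Over the whole window of 1200 bp, GGTCTCGC lay in 6 of the 16 members with a summit and in 1 of the 15 without, xrn-2. The same word lay in 10.1% of all genes with a thresholded summit and in 3.33% of genes without. For the spaced word the counts were 4 of 16 and 0 of 15, against 10.9% and 1.77% of all genes. Both words were read off the summit windows of members with a peak. The contrast between members with and without a summit was therefore largely fixed by that choice. Of the 6 members, only utp-20 held GGTCTCGC away from its summit, at -609 bp. Also shown are pro-2 and pro-3, 2 members with no summit in any list. Their 101 bp are centred at -226 bp from the 5′ end, the rounded median summit position of the members, and hold neither word. Few promoter windows hold either word (0.641% and 0.376%), and the summit windows of lpd-7, rbd-1, nol-10 and pro-1 hold neither as well. The absence of the words in pro-2 and pro-3 is therefore no contrast.
pro-2 (chrII:10345288-10345388, minus strand): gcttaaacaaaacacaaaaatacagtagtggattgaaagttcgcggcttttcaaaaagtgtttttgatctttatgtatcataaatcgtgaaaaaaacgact
pro-3 (chrV:19118588-19118688, minus strand): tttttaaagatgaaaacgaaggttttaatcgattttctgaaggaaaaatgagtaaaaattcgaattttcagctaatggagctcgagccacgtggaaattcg

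Another 7 words were counted on both strands. The E-box CACGTG was in none of the 15 member windows and in 5.37% of all thresholded windows. The TATA-like word TATAAA was likewise in none, and in 3.88% of all. GAGAGA, found in 24.9% of all thresholded windows, was in that of nucl-1 only. CTGCGT, found in 15.5%, was in that of dkc-1 only. TTTCAG, which resembles the worm splice acceptor, was in the lpd-7 window and in 5.22% of all. GCGCGC was in the windows of nol-58 and nsun-1 and in 8.57% of all, and in nsun-1 it overlaps the spaced word. A run of 6 T was in 5 member windows and in 23.7% of all. With 15 windows, a word at these shares can be missing from all or found in a few, so no ranking is drawn.

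Peak signal is given next for the box C/D genes. At fib-1, which encodes fibrillarin, the methyltransferase of these particles, the peak at chromosome V, positions 15002201 to 15002386, reached a pooled signal of 271, with 115.0 from replicate 1 and 155 from replicate 2. It ranked 117 among pooled peaks, 123 among those of replicate 1 and 139 among those of replicate 2, and its summit lay at -76 bp. At nol-58, a core scaffold protein (chromosome I, 3266715 to 3266855), the signals were 178 pooled, 74.01 and 97.2 (ranks 398, 400 and 510), with the summit at -314 bp. This summit lay at -18 bp from zip-4, a gene on the other strand. At nol-56, the partner of nol-58 (chromosome V, 10353150 to 10353282), the signals were 177, 62.0 and 113 (ranks 399, 579 and 346), with the summit at -249 bp. All 3 were among the strongest 399 of the 3220 thresholded peaks, and each had the higher signal in replicate 2, as most thresholded peaks did. By rank within each list, fib-1 and nol-58 stood lower in replicate 2 and nol-56 stood higher.

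The box H/ACA genes ranged more widely. The nola-3 peak (chromosome I, 10178333 to 10178511) had signals of 228 pooled, 109 in replicate 1 and 123 in replicate 2 (ranks 201, 144 and 282). Its summit lay at -617 bp, in an intron of fath-1, and nearer to the 5′ end of C25A1.16 on the same strand. At dkc-1, which encodes dyskerin, the pseudouridine synthase (chromosome III, 10748037 to 10748380), the signals were 94.3, 25.1 and 65.8. That is a ratio of 2.63 between replicate 2 and replicate 1, the highest of the 15 member peaks. At garr-1 (chromosome IV, 425614 to 425957) they were 88.0, 36.5 and 44.8.

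Among the processome genes rbd-1, an RNA-binding protein of pre-rRNA processing, was highest. Its peak (chromosome IV, 12724762 to 12724904) had signals of 218 pooled, 89.0 in replicate 1 and 121 in replicate 2 (ranks 234, 248 and 294), with the summit of replicate 1 at -150 bp and that of replicate 2 1 bp from it. At utp-20 (chromosome II, 6536078 to 6536195) the signals were 154, 79.1 and 77.9 (ranks 558, 344 and 809), at -237 bp. At nol-10 (chromosome IV, 7580245 to 7580588) they were 139, 68.9 and 74.2 (ranks 694, 459 and 865), at -180 bp. In these last 2 genes the ratio of replicate 2 to replicate 1 was 0.985 and 1.08.

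The weakest member peak was shared by 2 processome genes that face away from each other, dcaf-13 and toe-1 (chromosome II, 4424853 to 4425196). RefSeq names toe-1 a homolog of HEAT repeat-containing protein 1, which acts early in pre-rRNA transcription and processing in human cells. The signal was 50.8 pooled, and the lowest signal in the thresholded list was 48.4. Replicate 1 gave 35.6 (rank 1564) and replicate 2 gave 16.1 (rank 6674). This was the only one of the 15 member peaks outside the 3220 strongest of a replicate. Such peaks are common in the list, where 2507 of all 3220 thresholded peaks were among the strongest of replicate 1 and 2621 among those of replicate 2. The ratio of replicate 2 to replicate 1 was 0.452 at the shared peak, the lowest of the 15.

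Of the large-subunit genes, lpd-7 had the strongest peak of any member. It encodes pescadillo, a subunit of the PeBoW complex, and its peak (chromosome III, 7572992 to 7573181) had signals of 282 pooled, 87.1 in replicate 1 and 195 in replicate 2 (ranks 100, 272 and 66). The summit lay at -286 bp from lpd-7 and at -233 bp from rpl-9, a ribosomal protein gene on the other strand. At pro-1, a WD-repeat pre-rRNA processing factor (chromosome II, 10542069 to 10542205), the signals were 127, 62.5 and 72.9 (ranks 806, 567 and 899), at -164 bp. At nsun-1, an rRNA cytosine methyltransferase (chromosome II, 476031 to 476374), they were 101, 51.8 and 49.05 (ranks 1248, 842 and 1729), at -263 bp, with replicate summits 86 bp apart, the widest gap of the set. At lpd-6, a Brix domain protein (chromosome I, 3147744 to 3148087), they were 99.6, 41.4 and 60.5 (ranks 1277, 1236 and 1261), at -123 bp. Of these 4, only lpd-7 was among the 100 strongest pooled peaks. Nucleolin, encoded by nucl-1 and abundant in the nucleolus, had a peak of similar height at chromosome IV, positions 8289589 to 8289932, with signals of 99.1, 39.7 and 48.97 (ranks 1287, 1329 and 1735), at -231 bp.

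**Figure D1:**
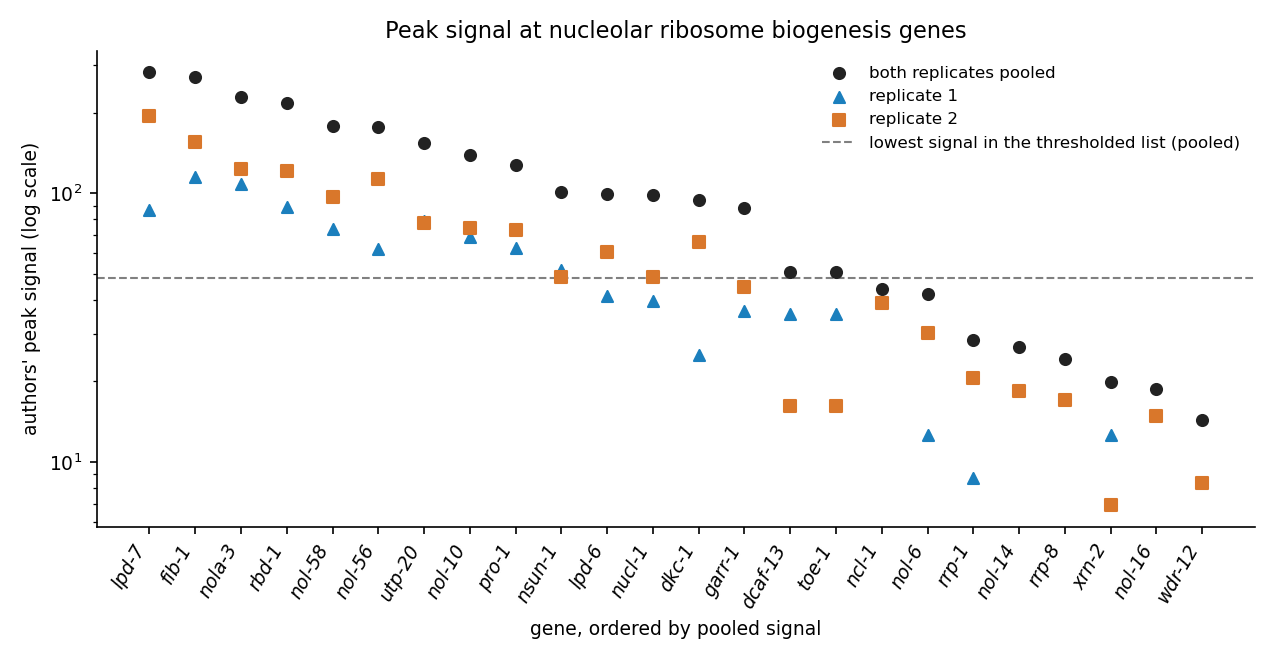
Peak signal (log scale) at the 24 members with a summit in the pooled list, ordered by pooled signal, with black circles for both replicates pooled, triangles for replicate 1, squares for replicate 2 and a dashed line at 48.4, the lowest thresholded signal. The 16 genes from lpd-7 (282) to toe-1 (50.8) lie above the line. Missing triangles are genes with no replicate 1 summit within 100 bp.

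Across the members the thresholded signal had a median of 133 and quartiles of 97.9 and 188. All 2728 genes with a thresholded summit had a median of 98.0 and quartiles of 68.9 and 153, with a maximum of 931, where the members' maximum was 282. The 15 member peaks all had a summit of both replicates within 100 bp, as did 93.0% of all thresholded peaks, and the median distance between the replicates was 17 bp (22.0 bp over all). Replicate 2 gave the higher signal in 12 of the 15, with a median ratio of 1.23 where that of all matched thresholded peaks was 1.46. Over the 15 peaks the log2 signals of the replicates had a Pearson correlation of 0.75 (Spearman 0.88), and over all 2996 matched thresholded peaks 0.66 (Spearman 0.62). These are described without a test, since the peaks share 2 libraries and a control.

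**Figure D2:**
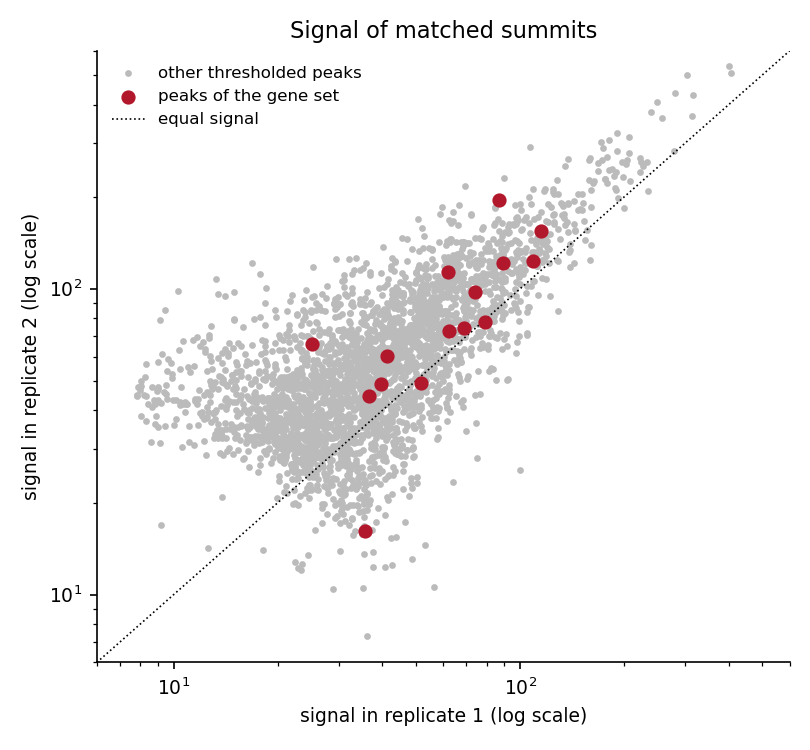
Signal in replicate 1 against replicate 2 (log scales) for the 2996 thresholded peaks matched in both replicates, with the 15 member peaks in red and a dotted line of equal signal. Of the red points 12 lie above the line, and the lowest, at 35.6 and 16.1, is the peak shared by dcaf-13 and toe-1. Of all matched peaks 19.1% lie below the line.

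Summits sat a short way upstream of the annotated starts. All 16 members had their summit upstream, from -76 bp at fib-1 to -617 bp at nola-3, with a median of -225.5 bp, and in all genes with a thresholded summit the median was -227.0 bp and 95.9% were upstream. Most of these promoters are shared. In 10 of the 15 peaks the summit also lay in the window of a gene that starts on the opposite strand, in 1 it lay in that of a gene on the same strand, and for nol-56, utp-20, pro-1 and nsun-1 it lay in no other gene's window. The nsun-1 summit lay inside the 5′ untranslated region of another protein-coding gene, W07E6.5, and the nucl-1 summit in an exon of the non-coding gene K07H8.14. By gene, 12 of 16 members shared their summit, against 55.8% of all genes with one. The partners include mut-15 at fib-1, ran-1 (the Ran GTPase of nuclear transport) at dkc-1, daf-31 at nucl-1, cec-5 at nol-10 and dscc-1 at lpd-6. For 6 members the nearest 5′ end was the neighbour's: rpl-9 for lpd-7, C25A1.16 for nola-3, T23F6.3 for rbd-1, zip-4 for nol-58, dscc-1 for lpd-6 and dcaf-13 for toe-1. Counted for the nearest 5′ end only, 10 of 31 members had a thresholded summit, and 9.68% of all genes. Of the 12 members with no other 5′ end within 1000 bp, 4 had one (33.3%), where 8.15% of all such genes did. In the pooled list it was 6 of the 12 (31.6% of all such genes), and in both replicate lists 5 (22.5%). The signal of a shared summit cannot be assigned to 1 of its genes.

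**Figure D3:**
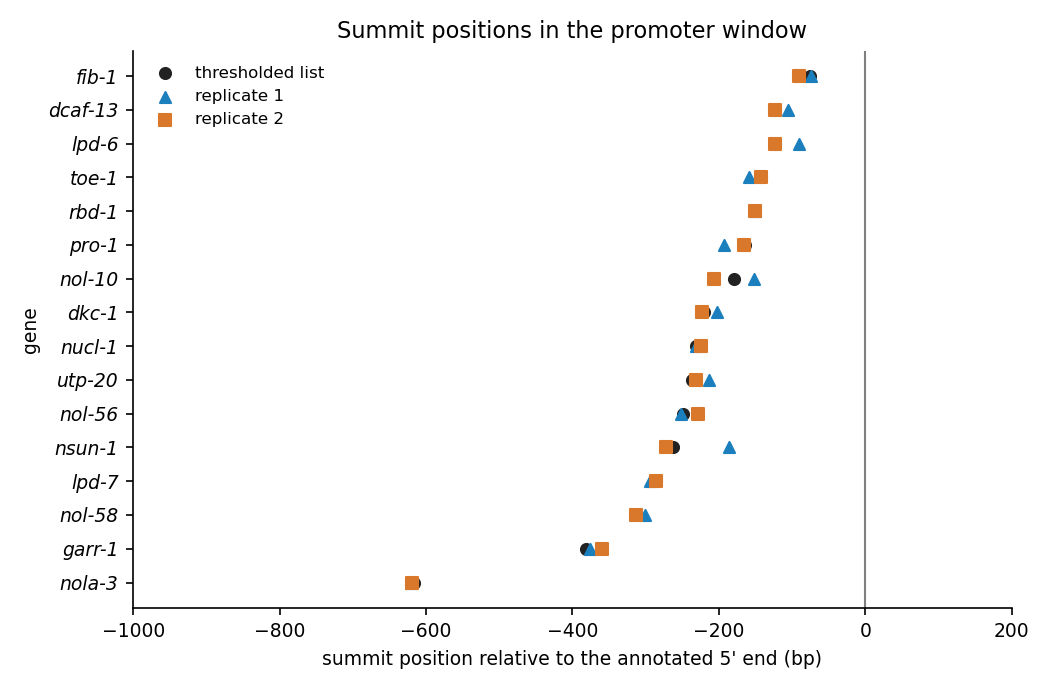
Summit position in bp from the annotated 5′ end (x axis, negative is upstream) for the 16 members with a thresholded summit, with circles for the thresholded list, triangles for replicate 1 and squares for replicate 2. Every point lies upstream of the start, nola-3 stands furthest away at -617 bp, and nsun-1 has the widest gap between replicates.

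Peak widths also varied. The width of 344 bp, the commonest in the thresholded list (82.2% of its matched peaks), was that of 7 of the 15 member peaks, and the other 8 were 118 to 190 bp wide. The 344 bp peaks are those of nol-10, nsun-1, lpd-6, nucl-1, dkc-1, garr-1 and the pair dcaf-13 and toe-1, so they are, apart from nol-10, the weaker peaks of the set.

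Another 8 members had a summit in the pooled relaxed list but none in the thresholded list. This brings the pooled total to 24 of 31 (77.4%), where 36.5% of all protein-coding genes had one. The strongest of these 8 were just under the threshold. At ncl-1, a B-box protein that limits nucleolar size and fibrillarin levels in worms, the pooled signal was 44.3 with a −log10 q of 3.38. Replicate 2 gave 39.0 at rank 2346, and replicate 1 had no summit within 100 bp of it. A separate thresholded summit (signal 71.7) lay at -1183 bp from ncl-1, outside the window. At nol-6, a processome component, the pooled signal was 42.4 with a −log10 q of 3.18, and the replicates gave 12.7 and 30.3.

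The remaining 6 of these were weaker still. The pooled signals of rrp-1 (28.4), nol-14 (26.7) and rrp-8 (24.1) had −log10 q values of 1.23, 1.02 and 0.73. Those of xrn-2 (19.9), nol-16 (18.75) and wdr-12 (14.4) had values of 0.33, 0.25 and 0.03. All 6 were below the −log10 q of 3.84 that every thresholded peak had, which means larger q values and weaker peaks by the authors' measure. In both replicates 3 of the 8 had a summit within 100 bp of the pooled one (nol-6, rrp-1 and xrn-2). At xrn-2, a nuclear exoribonuclease, it lay at 29 bp, inside the gene, in coding sequence. At wdr-12, another PeBoW subunit, it lay in coding sequence of mff-2. In the relaxed lists of both replicates together, 21 of 31 members (67.7%) had a summit in the window, where 27.9% of all genes did. In replicate 1 alone it was 21 (43.3% of all genes), and in replicate 2 alone 26 (42.9%).

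The count of members moved with the number of peaks kept and with the window. Among the strongest 1610 thresholded peaks 14 members had a summit (8.15% of all genes), and among the 6440 strongest pooled peaks 20 members (20.2%). The 4 genes gained there were ncl-1, nol-6, rrp-1 and nol-14. With the 3220 strongest peaks of replicate 1 it was 16 members (13.3%), and with those of replicate 2 also 16 (13.1%). In the latter, ncl-1 and nol-6 took the place of dcaf-13 and toe-1. A window of 500 bp upstream gave 15 members (11.3%), 500 bp to each side 15 (11.6%), and overlap of the peak region 17 (14.4%).

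The last 7 members had no pooled summit in the window. For ddx-52, an RNA helicase, and nol-9, a polynucleotide kinase, the relaxed list of replicate 2 held a weak summit each, with signals of 7.58 and 7.19 at ranks 23870 and 26031. The other 5 (pro-2, pro-3, ebp-2, rnp-7 and tsr-1) had none in any list. RefSeq names pro-2 a nucleolar complex protein and pro-3 an SDA1 protein, both factors of large-subunit maturation. A missing summit says that no peak was listed in the window at the unknown depth of these libraries, not that the protein is absent there.

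**Figure D4:**
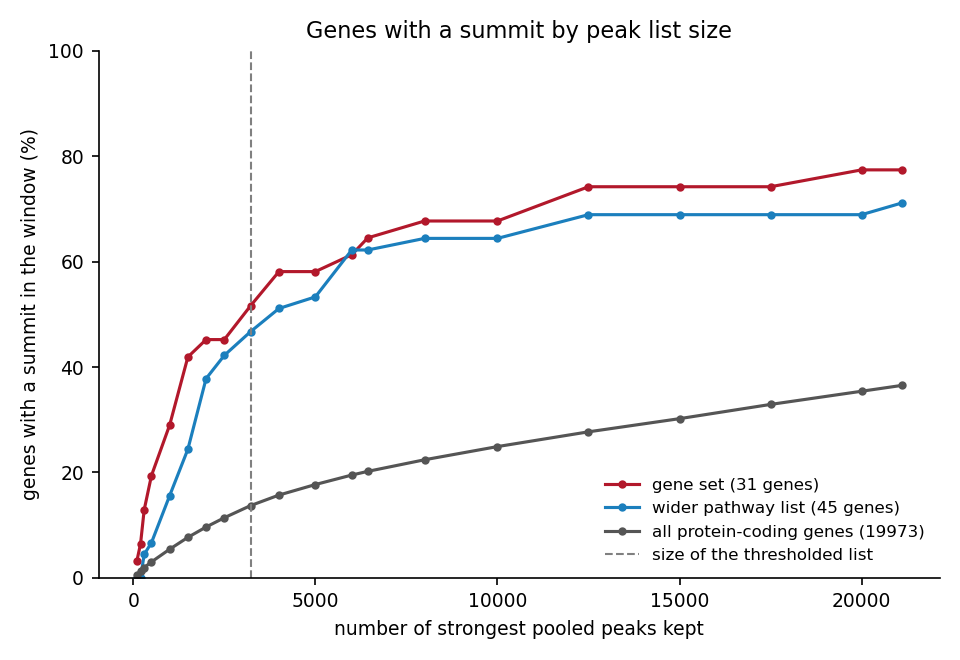
Share of genes (%) with a summit in the promoter window as the number of strongest pooled peaks kept grows along the x axis, for the 31 members (red), the 45 genes of a wider pathway list (blue) and all 19973 protein-coding genes (grey). At 3220 peaks (dashed line) the shares were 51.6%, 46.7% and 13.7%, and at all 21096 peaks 77.4%, 71.1% and 36.5%.

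Several members without a summit lie close behind another gene on the same strand. In worms such runs can be operons, which are transcribed from the start of the first gene. A protein-coding gene on the same strand ended within 500 bp upstream of 9 members, or overlapped their 5′ end by at most 100 bp. Of these 9, only pro-1 had a thresholded summit, and of the other 22 members 15 had one (68.2%). Over all genes the shares were 9.40% with such a neighbour and 14.6% without. The 22 members include nola-3, which overlaps C25A1.16 on the same strand by more than 100 bp. The 9 include rnp-7 and tsr-1, whose RefSeq products are of another kind. For rrp-8, xrn-2, wdr-12 and rnp-7 the first gene of the run had a thresholded summit (nog-1 with 136, rpl-43 with 317, mff-2 with 75.9 and syf-2 with 216), and for ddx-52, nol-9, pro-3 and tsr-1 it had none. The same share over all genes in such runs was not counted, so no excess can be read from this. The rpl-43 summit lay at -745 bp from rpl-43 but at -176 bp from Y48B6A.1, a gene on the opposite strand. With a window reaching 2000 bp upstream, 21 of 31 members had a thresholded summit, and 17.4% of all genes. The 5 genes gained were ncl-1, xrn-2, wdr-12, pro-3 and rnp-7. Which genes are operon members was not looked up, and this grouping was chosen after the values were seen.

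A symbol that the rule leaves out had a stronger peak than any member. RefSeq names Y48B6A.1 bop-1, the PeBoW partner of lpd-7 and wdr-12, while the Ensembl annotation lists it by its sequence name only. Its peak (chromosome II, 14154441 to 14154652) reached a pooled signal of 317 (rank 74), with 133 from replicate 1 and 186 from replicate 2. The summit lay at -176 bp from its start and at -745 bp from that of rpl-43, which faces away from it. The 101 bp at this summit, on the strand of the gene, hold the spaced word, in capitals.
bop-1 (chrII:14154499-14154599, minus strand): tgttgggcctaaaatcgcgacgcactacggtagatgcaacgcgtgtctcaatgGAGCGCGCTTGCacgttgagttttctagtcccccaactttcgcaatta

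The wider pathway, from a list of 87 further symbols of RNA polymerase I, the RNA exosome and other pre-ribosome factors, had 48 matches. RefSeq gives imp-3, nop-1 and cebp-2 products of another kind, and they were left out. The gene byn-1, which RefSeq names a cell adhesion protein, was kept. Of the remaining 45 genes, 21 (46.7%) had a thresholded summit. Among all protein-coding genes the share was 13.7%. By group, the 21 genes were 3 of 7 RNA polymerase I genes, 5 of 12 exosome genes and 13 of 26 others. The RNA polymerase I group includes rpac-19, which had a thresholded summit, and rpac-40, which had none. RefSeq gives both as subunits of RNA polymerases I and III. The strongest was popl-1, a subunit of ribonucleases P and MRP, with signals of 224 pooled, 102.2 in replicate 1 and 125 in replicate 2. Its summit lay at -993 bp from the start and in the windows of txdc-9 and mrps-17 as well. Next were ruvb-2, an ATPase of snoRNP assembly (211, 85.4 and 118.6), wdr-46 (175, 84.1 and 81.3) and tif-1A, an RNA polymerase I initiation factor (157, 61.2 and 94.9). These 3 summits lay in no other window, from -270 bp (tif-1A) to -165 bp (wdr-46) and nearer the start at ruvb-2. The largest RNA polymerase I subunit genes, rpoa-1 and rpoa-2, had pooled summits only, with signals of 41.0 and 25.4. Whether the wider list and the member set differ was not tested.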

How the data were processed

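The data are chromatin immunoprecipitation sequencing peaks from 2 samples of 1 group. Per the notes deposited with the lists, the authors called peaks and background on each replicate and on both pooled, each with a control, and thresholded them by irreproducible discovery rate. Aligner, caller and versions: not given in the sources used here. Each of the 4 lists used is on ce11, and the ce10 lists were not used. The deposited signal is the authors' value per peak, on an unstated scale. The deposited −log10 q was read from the narrowPeak q column, where 3.84 is tied for all thresholded peaks. Summits are the peak start plus the deposited offset. The ce11 build is the same assembly as WBcel235, and genes are from Ensembl release 115 (46890 genes on 6 nuclear chromosomes), with product names and sequence from RefSeq.

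Replicate summits were matched within 100 bp. The assignment of summits to windows was tested on simulated data. Depth is unknown, so no counting intervals are given. Python 3.11.15, numpy 2.4.6, pandas 2.3.3 and scipy 1.17.1 were used. With no second condition, no test was made. The members and lists were chosen with earlier results of these data known. The role list first had toe-1 under other genes and ebp-2 under large-subunit assembly, and both were moved by their RefSeq product. By rule every member is reported, the 12 strongest with position and ranks, the 4 strongest genes of the wider list are named, and sequence is shown for the 8 strongest member peaks on chromosomes II to V and for 2 members without one. The nucl-1, garr-1 and bop-1 sequences, and rpoa-1 and rpoa-2, were chosen after their values were seen. Alternatives were other windows, peak overlap, nearest 5′ end, isolated genes, other list sizes, single replicates, matching distances and word windows.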

Additional observations from a re-analysis of the deposited data

How the results depend on the processing

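The count of members with a thresholded summit was 16 and lay between 14 and 21 under the other windows (500 bp upstream, 2000 bp upstream, 500 bp to each side), peak overlap, the strongest 1610 or 6440 peaks and each replicate alone (16 without replicate 1 and 16 without replicate 2). It was 10 when a summit counted for the nearest 5′ end only. Among the 12 members with no other 5′ end within 1000 bp it was 4 (33.3%, and 8.15% of all such genes), with 6 in the pooled list and 5 in both replicate lists. This setting removes genes by construction. Replicate 2 alone called ncl-1 and nol-6 and dropped dcaf-13 and toe-1. The wider list moved from 22 of 48 to 13 with the strongest 1610 peaks and to 6 of 27 among isolated genes. The median member signal, 133 pooled, was 62.3 to 73.5 in single replicates, whose lists are on their own scale. The median position, -225.5 bp, was -198 to -223.5 bp with single replicates' summits. Nearby summits of both replicates were found for 15 members within 50 bp and 16 within 200 bp. At least 1 of the 7 listed words was in 10 member windows, 14 with 100 bp to each side and 13 with the 6440 strongest peaks, and 2 words chosen after seeing the data were in 8. Leaving out symbols with other RefSeq products was also chosen after seeing the data and kept 16 members and 21 genes of the wider list. No paired analysis was possible because there is 1 group. Unknown depth limits what a missing summit can show.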

Other observations

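Genes of ribosome production lay side by side at xrn-2. Here Y48B6A.1 (bop-1 in RefSeq) and rpl-43, which face away from each other, shared the summit of signal 317. It lay at -176 bp from Y48B6A.1 and at -745 bp from rpl-43. The xrn-2 gene, 198 bp behind rpl-43, had that summit at -1219 bp from its own start. Similarly, rrp-8 overlaps the end of nog-1, a GTPase of large-subunit assembly. The nog-1 summit (signal 136, with 42.0 in replicate 1 and 87.7 in replicate 2) lay at -2955 bp from rrp-8. A pooled summit at rrp-8 itself (signal 24.1) lay in the 3′ untranslated region of nog-1. Both runs were picked after the values were seen, and operon membership was not looked up. For 4 of the 8 members without a thresholded summit in such runs, the first gene had none either.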
